A study of Mus musculus with 16 samples.

Results

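The genes described are those for the proteins of the mitochondrial ribosome. They were taken by symbol as every row named Mrpl or Mrps followed by a number, leaving out 5 rows whose names mark pseudogenes. This gave 78 of 51912 genes, 49 with Mrpl and 29 with Mrps symbols. They were measured by bulk RNAseq in 16 libraries from 4 subpopulations of cMyc+ LZ GC B cells, 4 libraries each. The cells came from the spleen of cMyc gfp/gfp mice, in which GFP is fused to the cMyc protein and both alleles carry the fusion. The mice were males and females on a C57BL/6J background, 6 to 15 weeks old, and were all analysed 7 d after immunization with SRBC. All 4 groups were sorted as B220+ CD38low CD95+ cMycGFP+ cells, so that no cMyc-negative cells serve as a control here. prePB were gated as CD69hi cells, early as CD23hi CD21/35hi, lateCD23int as CD23int CD21/35int and lateCD23lo as CD23lo CD21/35lo. In the paper, the early and late groups were taken after gating out prePB and dark zone cells. The prePB gate used no dark zone or LZ markers, and the paper describes these cells as predominantly LZ.

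The mitochondrial ribosome translates the few mRNAs encoded by mitochondrial DNA, all for core subunits of the respiratory chain and ATP synthase. Its rRNAs are made in the mitochondrion, whereas all of its proteins are encoded in the nucleus, made in the cytosol and imported. Some of these proteins have counterparts in bacterial ribosomes and others are specific to mitochondria. cMyc, nuclear respiratory factors, ETS factors and YY1 are known regulators of mitochondrial biogenesis.

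Recovered reads per library ranged from 19812080 to 25795815. All 78 genes passed the mean of at least 10 normalised read counts required for testing, as did 12505 genes in all, and the lowest value of any of the 78 in a library was 133 reads. B cell markers summed to between 109240 and 279915 normalised read counts per library, T cell markers to 12.6 to 206 and myeloid markers to 203 to 1445. Plasma cell markers summed to 37257 to 111293 in prePB, 23488 to 30149 in early, 31588 to 59105 in lateCD23int and 56149 to 90119 in lateCD23lo. Jchain made up most of these sums, with means of 55443, 23623, 41795 and 64836 in the same order. It was lower in early than in lateCD23lo (-1.44 ± 0.29, SE, limma adjusted p = 0.0394, edgeR adjusted p = 0.0639). The single markers did not all follow the sums. Of the 5 tested, 2 were higher in early than in lateCD23lo, and 3 were higher in prePB than in lateCD23lo. The myeloid sum was 753 to 1445 in lateCD23lo and 203 to 825 elsewhere. GC B cell markers summed to 26311 to 31209 in prePB, below all libraries of lateCD23int (36124 to 56128) and lateCD23lo (33289 to 45743), and to 27340.2 to 36957 in early. Naive B cell markers summed to 1655 to 3066 in prePB, 2842 to 6773 in early, 2122 to 4537 in lateCD23int and 2205 to 2411 in lateCD23lo, and erythroid markers to 165 to 4954 over all libraries. By limma, 1 of the 6 naive B cell markers was lower in prePB than in early at an adjusted p under 0.05. For early versus lateCD23lo, 1 of the 6 was higher in early by the same test, and edgeR called 0 in both comparisons. The part of these marker lists in the results was not tested. Fcer2a, which encodes CD23, was higher in early than in lateCD23lo (log2 fold change 2.63 ± 0.39, SE, limma adjusted p = 0.00434). Cr2, which encodes CD21/35, did not differ by the test between the groups gated on it, with means of 6638 in early, 6928 in lateCD23int and 4738 in lateCD23lo (early versus lateCD23lo 0.63 ± 0.34, SE, limma adjusted p = 0.534), and was lower in prePB (mean 1859.7) than in early (-1.90 ± 0.34, SE, limma adjusted p = 0.0269, edgeR adjusted p = 0.0702). Cd69 mRNA was not called between subpopulations gated on CD69, with a mean of 3453 in prePB, 3159.8 in early, 3762 in lateCD23int and 2277 in lateCD23lo. Nothing in the labels ties libraries to separate mice, so p-values measure the spread between these libraries. In bulk RNA, fewer cells of a type and less RNA per cell cannot be told apart.

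All 78 genes were expressed in every library, at levels that spanned 119-fold between genes. Levels between genes are given as normalised read counts per kb of the principal transcript. The median was 1639 per kb, and 60 of the 78 lay within 3-fold of it. The highest were Mrpl42 at 14873 per kb, a mitochondria-specific protein of the large subunit, Mrps21 at 8658, Mrpl18 at 7581, a large subunit protein of a family that binds 5S rRNA in bacteria, Mrpl33 at 7360 and Mrps18c at 5785. The lowest were Mrps35 at 125 per kb, Mrps5 at 187, Mrps25 at 225, Mrps26 at 252 and Mrps2 at 313, all proteins of the small subunit. The 51 proteins of the large subunit and the 26 of the small one had close medians, 1599 and 1617 per kb. The 46 with a bacterial homolog had a median of 1776 per kb and the other 32, called mitochondria-specific here, one of 1117. The latter class follows the naming of ribosomal positions and so also holds Mrps18a and Mrps18b, which are relatives of a bacterial protein, and Mrps36, which is no stable part of the ribosome. The principal transcripts of the 5 lowest genes were 2080 (Mrps2) to 6073 (Mrps25) bases long and those of the 5 highest 478 (Mrpl33) to 1219 (Mrpl18).

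**Figure D1:**
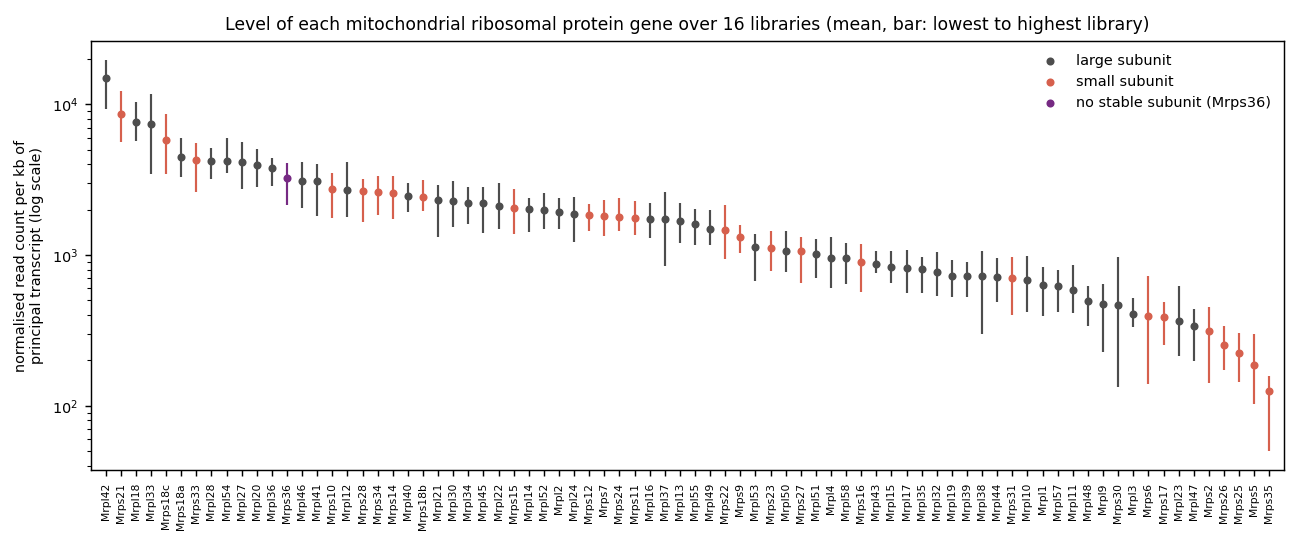
Normalised read count per kb of principal transcript (log axis) of each of the 78 genes, as the mean of 16 libraries (point) and the lowest to highest library (bar), with large subunit proteins in grey, small subunit proteins in red and Mrps36 in purple. The genes run from Mrpl42 at 14873 to Mrps35 at 125, and both subunits spread over most of the range.

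Some members have a place or role apart from their symbol, and others have a well known role. Mrps18a, Mrps18b and Mrps18c are 3 relatives of 1 bacterial small subunit protein, of which Mrps18a sits in the large subunit. Mrps18a had a mean of 3919 normalised read counts, Mrps18b of 2623 and Mrps18c of 3691. Mrps30 is likewise a protein of the large subunit. Mrps36 (mean 2254) is now known as a subunit of the oxoglutarate dehydrogenase complex. Mrpl58 (2467) is a peptidyl-tRNA hydrolase that became part of the large subunit, Mrpl45 (5366) holds the ribosome at the inner membrane, Mrps12 (1617) belongs to the decoding centre, and Mrpl12 (3564), of the stalk, also binds the mitochondrial RNA polymerase. None of these 9 was called between any subpopulations by limma or edgeR in the reported fits, and of the alternatives 3 called Mrps30, as given with its values.

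Promoters were read from RefSeq (GRCm38.p6) as the 250 bases before to 50 after a start. Entries were found for 69 of the 78 genes, 75 promoters in all. The ETS core CCGGAAG, on either strand, was in 34.7% of the 75 promoters, in 19.3% of the 10905 promoters of tested genes and in 8.86% of all 32851 promoters. The YY1 core AAGATGGC was in 16%, against 4.87% and 2.75%. The core of the NRF1 motif, GCATGCGC, was in 10.7%, against 5.61% and 2.71%. The E-box CACGTG that cMyc binds was in 9.33%, against 10.4% and 7.15%, the CCAAT box CCAAT in 40%, against 39% and 37.4%, and the TATA box TATAAA in 6.67%, against 6.92% and 13.6%. A median of 58.7% of the bases were G or C, compared with 60.3% for tested genes, and 52.7% for all promoters. For prePB versus early, the median log2 fold change was 0.07 for the 26 genes with the ETS core and 0.19 for the 43 without. It was 0.23 for the 5 genes with the E-box and 0.11 for those without, 0.18 and 0.11 for the YY1 core (12 with), and 0.14 and 0.10 for the NRF1 core (8 with). Promoters of 5 genes are shown because the results return to their genes, 5′ to 3′ along the gene, with ETS, YY1, NRF1 core and E-box matches on either strand in capitals. A match is a description and not a shown binding site. Mrpl52 (chr14:54426659-54426958, plus strand) holds the ETS core at 2 places, Mrps18c (chr5:100798509-100798808, plus strand) an E-box beside 1 ETS core, Mrps12 (chr7:28741772-28742071, minus strand) a YY1 and an ETS core, Mrpl32 (chr13:14612988-14613287, minus strand) 4 matches of the NRF1 core, 2 of them overlapping, and a YY1 core, and Mrps30 (chr13:118387203-118387502, minus strand) none of them.
Mrpl52: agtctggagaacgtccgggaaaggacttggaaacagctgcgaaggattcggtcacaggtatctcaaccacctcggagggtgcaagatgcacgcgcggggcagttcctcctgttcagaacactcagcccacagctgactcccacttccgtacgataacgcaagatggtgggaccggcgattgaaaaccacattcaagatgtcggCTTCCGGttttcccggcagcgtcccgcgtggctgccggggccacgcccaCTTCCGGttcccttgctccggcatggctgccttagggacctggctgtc
Mrps18c: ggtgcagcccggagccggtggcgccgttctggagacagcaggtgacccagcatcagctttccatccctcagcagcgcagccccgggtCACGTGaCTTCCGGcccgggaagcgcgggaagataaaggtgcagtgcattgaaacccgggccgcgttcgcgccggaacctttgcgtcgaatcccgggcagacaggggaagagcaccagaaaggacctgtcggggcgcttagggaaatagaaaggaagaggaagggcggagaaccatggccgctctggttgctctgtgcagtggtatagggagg
Mrps12: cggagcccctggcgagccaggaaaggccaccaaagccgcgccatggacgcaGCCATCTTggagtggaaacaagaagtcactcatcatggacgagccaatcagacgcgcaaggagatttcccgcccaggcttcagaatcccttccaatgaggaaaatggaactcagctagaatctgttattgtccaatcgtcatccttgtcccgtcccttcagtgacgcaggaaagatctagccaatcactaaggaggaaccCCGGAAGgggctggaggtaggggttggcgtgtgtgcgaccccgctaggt
Mrpl32: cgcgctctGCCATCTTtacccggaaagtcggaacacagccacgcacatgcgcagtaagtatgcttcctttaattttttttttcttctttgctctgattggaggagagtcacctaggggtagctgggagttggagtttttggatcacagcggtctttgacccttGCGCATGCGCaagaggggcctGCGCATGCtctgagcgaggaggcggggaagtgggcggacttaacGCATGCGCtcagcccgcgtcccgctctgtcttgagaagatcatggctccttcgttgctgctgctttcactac
Mrps30: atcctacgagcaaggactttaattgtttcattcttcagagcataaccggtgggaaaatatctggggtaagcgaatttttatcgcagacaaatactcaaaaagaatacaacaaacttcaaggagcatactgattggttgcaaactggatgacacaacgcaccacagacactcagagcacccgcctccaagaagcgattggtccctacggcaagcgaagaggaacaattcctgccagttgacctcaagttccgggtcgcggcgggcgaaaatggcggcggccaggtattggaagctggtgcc

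A protein-coding gene transcribed in the opposite direction was counted within 1000 bases of the start of 19 of the 78 genes (24.4%). The share was 12% of the 10504 tested protein-coding genes. Not every overlapping pair was counted, so both shares may be too low. Mrps11 and Mrpl46, whose starts lie inside each other on opposite strands, were left out. Counted pairs included Mrps12 with Sars2, a mitochondrial tRNA synthetase (172 bases), Mrpl36 with Ndufs6, a complex I subunit (starts overlapping by 29 bases), Mrpl49 with Fau (59 bases) and Mrps18c with Helq (29 bases). The 78 genes lay on 17 chromosomes, with 11 of them on chromosome 11.

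The summed level of the 78 genes overlapped between the 4 subpopulations. It was 208040.0, 190600.0, 193907 and 212512 normalised read counts in prePB libraries 1 to 4, 192099, 164018, 214281 and 162160.3 in early, 203679, 192949.8, 145141 and 204369.7 in lateCD23int, and 195399, 197141, 214915 and 225916 in lateCD23lo. Group means were 201265 ± 10650.1 (SD, n = 4) in prePB, 183139.8 ± 24872 in early, 186535 ± 28087 in lateCD23int and 208343 ± 14663 in lateCD23lo. As a share of the reads of a library, the 78 genes took 0.893% to 0.989% in prePB, 0.772% to 0.885% in early, 0.706% to 0.932% in lateCD23int and 0.828% to 0.962% in lateCD23lo. By this share, unlike by the sum, all prePB libraries lay above all early libraries, while the other pairs of subpopulations overlapped. The ratio of large to small subunit sums ranged from 2.21 to 2.41 over the 16 libraries.

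The lowest sums came from lateCD23int 3, early 4 and early 2. lateCD23int 3 was the lowest library of its subpopulation for 60 of the 78 genes, and early 4 for 37 of them. Other values moved with these libraries, and their part in the sums was not tested. Genes with cytosolic ribosomal protein symbols were taken by a name pattern, which also matches Rps6k kinase genes and Rps19bp1. Their median deviation from the gene mean was -0.41 (log2) in both lateCD23int 3 and early 4 and -0.22 in early 2, the highest value being 0.27 in lateCD23int 1. Genes with short transcripts (at most 2039 bases) were low relative to those with long ones (over 3670 bases), by -0.36 in lateCD23int 3, -0.31 in early 4 and -0.16 in early 2, against -0.10 to 0.15 in the other 13 libraries. Of the 78 genes, 53 were in the short class. Myc was also high in these libraries, at 3817 in lateCD23int 3 and at 857 to 1839 in the other lateCD23int libraries, and at 3563 in early 4 and 3503 in early 2 against 1183 and 1760.3 in early 1 and 3. Fcer2a was highest within the subpopulation in the same 3 libraries.

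**Figure D2:**
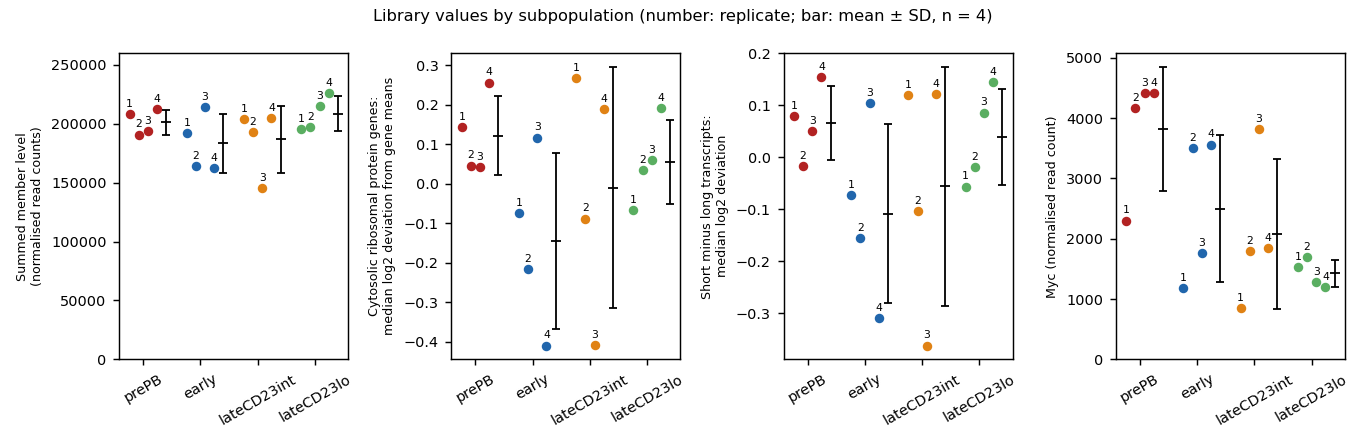
Values of each library (points numbered by replicate) by subpopulation, with mean ± SD (n = 4) at the right: the summed level of the 78 genes in normalised read counts, the median log2 deviation of genes with cytosolic ribosomal protein symbols, the log2 deviation of short minus long transcripts, and Myc. lateCD23int 3 (sum 145141) and early 4 are low in the first 3 panels and high in the last.

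No gene of the 78 passed an adjusted p of 0.05 in any comparison in the reported limma fit. The limma F test over the 4 subpopulations called 0 of 78, while 51 genes (0.408%) were called among all 12505, and edgeR also called 0 of 78, beside 0.232%. At an unadjusted p under 0.05 the F test took 5 of the 78 (6.41%), against 10.2% of all genes. Between pairs, limma called 0 of 78 in each, beside 0.192% of all genes for prePB versus early, 0.008% for early versus lateCD23int, 0.008% for lateCD23int versus lateCD23lo, 0.28% for early versus lateCD23lo, 0.144% for prePB versus lateCD23int and 0.264% for prePB versus lateCD23lo. edgeR called 0 of 78 in all of these, beside 0.064%, 0.008%, 0.008%, 0.184%, 0.088% and 0.248% of all genes in the same order. Unadjusted p-values under 0.05 numbered 4 for prePB versus early (8.58% of all genes), 0 for early versus lateCD23int (3.71%), 5 for lateCD23int versus lateCD23lo (6.28%), 8 for early versus lateCD23lo (10.3%), 6 for prePB versus lateCD23int (8.77%) and 7 for prePB versus lateCD23lo (12.7%). The 95% interval of a log2 fold change had a median width of 0.82, and it lay within -1 and 1 for 71 to 77 of the 78 genes, depending on the comparison.

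The fold changes were small and leaned one way in 4 of the 6 comparisons. prePB had the higher mean log2 level than early for 66 of the 78 genes (84.6%, against 51.2% of all genes), with a median log2 fold change of 0.13 against 0.01 for all genes. The median was 0.08 without early 4, and was positive under every scaling tried. prePB was above lateCD23int for 63 of the 78 (80.8%, against 48.2%), with a median of 0.13 against -0.02. Without lateCD23int 3, 41 of the 78 were higher in prePB and the median was 0.01. lateCD23int exceeded lateCD23lo for 13 (16.7%, against 51.2%), with a median of -0.15 against 0.02, and for 28 with a median of -0.04 without lateCD23int 3. early exceeded lateCD23lo for 19 (24.4%, against 49.6%), with a median of -0.15 against -0.01, and with medians of -0.09 without lateCD23lo 4 and -0.11 without early 4.

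In the other 2 comparisons the share was near that of all genes. early exceeded lateCD23int for 38 of the 78 (48.7%, against 47% of all genes), with a median log2 fold change of -0.002 against -0.03, which was 0.003 after rescaling to the same total, and for 23 with a median of -0.11 without lateCD23int 3. prePB exceeded lateCD23lo for 38 (48.7%, against 49.5%), with a median of -0.01 against -0.01. After rescaling all libraries to the same total, 49 of the 78 were higher in prePB than in lateCD23lo and the median was 0.07, with 0.07 for all genes. The mean over 4 libraries was highest in lateCD23lo for 38 of the 78 genes, in prePB for 32, in early for 4 and in lateCD23int for 4. It was lowest in early for 34, in lateCD23int for 30, in lateCD23lo for 9 and in prePB for 5. Comparisons that name the same subpopulation share its libraries.

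**Figure D3:**
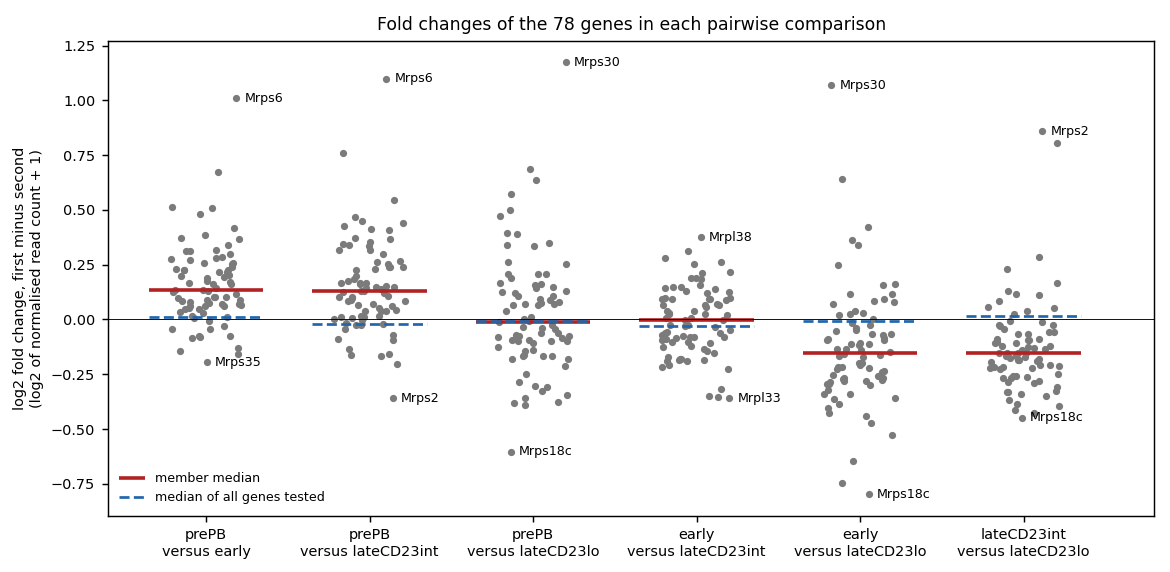
log2 fold changes (first minus second subpopulation, log2 of normalised read count + 1) of the 78 genes, 1 point a gene, for 6 pairwise comparisons, with the median of the 78 (solid) and of all genes tested (dashed) and the outermost genes named. Most points lie close to the medians, and Mrps30, Mrps6 and Mrps2 stand farthest above.

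Mrps30 had the largest fold change of the 78 genes over the 6 comparisons. It encodes a large subunit protein with no bacterial counterpart (chr13:118378381-118387252, minus strand, GRCm38). Mrps30 had 866, 1748, 2391 and 3203 normalised read counts in prePB, 1340.4, 2286, 1187 and 2385 in early, 1010.1, 1411, 1953 and 1498 in lateCD23int and 442, 858, 1102 and 1068 in lateCD23lo libraries 1 to 4. Levels were low in all lateCD23lo libraries, and prePB spread from 866 to 3203 and overlapped lateCD23lo in library 1 alone. The log2 fold change was 1.17 ± 0.37 (SE, limma adjusted p = 0.209) for prePB versus lateCD23lo, or 2.37-fold between means. A fit blocked on replicate number called it (limma adjusted p = 0.031, with 1.54% of all genes called, and 0.0319 in edgeR, with 1.14%), as did the limma fit without prePB 1 (0.0384). Over 27 alternatives this limma or edgeR adjusted p ranged from 0.031 to 0.492. The early libraries (1187 to 2385) all exceeded the lateCD23lo libraries (442 to 1102), with a log2 fold change of 1.07 ± 0.37 (SE, limma adjusted p = 0.317). It was 0.81 ± 0.37 (SE, limma adjusted p = 0.773) for lateCD23int versus lateCD23lo, where groups overlapped. Mrps30 also varied most within subpopulations, with a residual SD of 0.60 on the log2 scale.

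Mrpl52 and Mrpl47 were higher in each prePB library than in all 12 others, which held for no other of the 78 genes and for 0.328% of all genes tested. Mrpl52 had 1015, 1071, 1065 and 1078 normalised read counts in prePB, 619, 723, 686 and 625 in early, 793, 798, 706 and 800.3 in lateCD23int and 845, 959, 676 and 768 in lateCD23lo libraries 1 to 4. Mrpl52, a mitochondria-specific protein of the large subunit, was thus close among the prePB libraries and lower in all others, the nearest being lateCD23lo 2. The log2 fold change was 0.67 ± 0.18 (SE, limma adjusted p = 0.194) for prePB versus early, and the F test over all groups gave an adjusted p of 0.327 in limma. Mrpl47 had 1427, 1385, 1422 and 1468 normalised read counts in prePB, 1219.9, 997, 1032 and 805 in early, 1137, 1191, 671 and 997 in lateCD23int and 1169, 924, 1177 and 1286 in lateCD23lo libraries 1 to 4. Mrpl47, a large subunit protein with a bacterial homolog, was lowest in lateCD23int 3. Its log2 fold change was 0.55 ± 0.20 (SE, limma adjusted p = 0.436) for prePB versus lateCD23int. Exons of Mrpl47 overlap Actl6a and Ndufb5 on the other strand, so that reads from these cannot be told apart without strand. In all, 5 genes did not overlap between prePB and early, with prePB higher (2.06% of all genes), namely Mrpl2, Mrpl47, Mrpl52, Mrps12 and Mrps15. None lay wholly below (2.18%).

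Mrps6, a small subunit protein with a bacterial homolog, had a low mean level among the 78 genes and the largest fold change between prePB and early. Mrps6 had 548, 461, 396 and 616 normalised read counts in prePB, 398, 118, 280.1 and 283 in early, 152, 262, 226 and 322 in lateCD23int and 278, 304, 261 and 414 in lateCD23lo libraries 1 to 4. It was high in prePB, where libraries 1, 2 and 4 exceeded all other libraries, and early 1 (398) and lateCD23lo 4 (414) exceeded prePB 3 (396). The log2 fold change was 1.01 ± 0.37 (SE, limma adjusted p = 0.429) for prePB versus early, 1.10 ± 0.37 (SE, limma adjusted p = 0.355) for prePB versus lateCD23int, where groups did not overlap, and 0.69 ± 0.37 (SE, limma adjusted p = 0.447) for prePB versus lateCD23lo. Exons of Mrps6 overlap Slc5a3 on the same strand, so that reads of Slc5a3 (mean 73.0) and Mrps6 cannot be fully told apart. In all, 7 genes lay wholly above lateCD23int in prePB (2.46% of all genes), among them Mrpl38, a mitochondria-specific large subunit protein, and none wholly below (2.75%). Mrpl38 had 1317, 1270.3, 1235 and 1489 normalised read counts in prePB, 799.7, 1094, 913 and 1321 in early, 425, 952, 1075 and 857 in lateCD23int and 641, 1245, 913 and 722 in lateCD23lo libraries 1 to 4. lateCD23int 1 was lowest, and early 4 and lateCD23lo 2 reached the prePB range. Its log2 fold change was 0.76 ± 0.28 (SE, limma adjusted p = 0.428) for prePB versus lateCD23int and 0.64 ± 0.28 (SE, limma adjusted p = 0.352) for prePB versus lateCD23lo.

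Mrps2, a small subunit protein with a bacterial homolog, was lowest in lateCD23lo. Mrps2 had 412, 935, 488 and 776 normalised read counts in prePB, 616, 846, 447 and 933 in early, 756, 757, 869.9 and 797 in lateCD23int and 294, 550.2, 468 and 481 in lateCD23lo libraries 1 to 4. lateCD23int libraries were all above those of lateCD23lo, whereas prePB and early spread over both ranges. On the log2 scale the fold change was 0.86 ± 0.30 (SE, limma adjusted p = 0.699) for lateCD23int versus lateCD23lo and 0.64 ± 0.30 (SE, limma adjusted p = 0.475) for early versus lateCD23lo. In lateCD23int versus lateCD23lo, 1 gene of the 78 lay wholly above lateCD23lo in lateCD23int (1.91% of all genes), Mrps2 itself, and 2 wholly below (1.86%), Mrpl28 and Mrpl45.

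Mrps18c, the small subunit member of the 3 Mrps18 genes, and Mrpl33, a large subunit protein, were high in lateCD23lo. Mrps18c had 4055, 2612, 3232 and 3100.1 normalised read counts in prePB, 3151, 2267, 3961 and 2197 in early, 5024, 3577, 2326 and 3919 in lateCD23int and 5129.6, 4082, 5463 and 4961 in lateCD23lo libraries 1 to 4. All lateCD23lo libraries exceeded those of prePB and early, and lateCD23int 1 lay in their range. On the log2 scale the fold change was -0.80 ± 0.23 (SE, limma adjusted p = 0.206) for early versus lateCD23lo, -0.60 ± 0.23 (SE, limma adjusted p = 0.274) for prePB versus lateCD23lo and -0.45 ± 0.23 (SE, limma adjusted p = 0.808) for lateCD23int versus lateCD23lo. Mrps18a and Mrps18b gave -0.22 and 0.03 for early versus lateCD23lo. Mrpl33 had 4082, 2974, 3227 and 3608 normalised read counts in prePB, 3112, 2215, 3864 and 1658 in early, 5036, 3128, 2083 and 3639.8 in lateCD23int and 5592, 3119.6, 4223 and 4731 in lateCD23lo libraries 1 to 4. lateCD23lo 1 and lateCD23int 1 were highest and early 4 lowest, and the groups overlapped. Its log2 fold change was -0.74 ± 0.27 (SE, limma adjusted p = 0.343) for early versus lateCD23lo.

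Mrpl1 and Mrpl18, both with bacterial homologs in the large subunit, were also among the genes with the smallest F test p-values. Mrpl1 had 2543, 2182, 2277 and 2579 normalised read counts in prePB, 1730.3, 1474, 2241 and 1507 in early, 2529, 2298, 1402 and 2541 in lateCD23int and 2939, 2423, 2838 and 2571 in lateCD23lo libraries 1 to 4. It was lower in all early than in all lateCD23lo libraries, and lateCD23int 3 was lower still. The log2 fold change was -0.65 ± 0.19 (SE, limma adjusted p = 0.232) for early versus lateCD23lo. Mrpl18 had 10062, 7846, 8320.1 and 8386 normalised read counts in prePB, 9421, 7396, 9414 and 6979.7 in early, 9461, 9864, 6907 and 9215 in lateCD23int and 9076, 10758, 12160.0 and 12596 in lateCD23lo libraries 1 to 4. lateCD23lo 3 and 4 were highest, and the groups overlapped, with an F test adjusted p of 0.511 in limma. Exons of Mrpl18 overlap Tcp1 on the other strand. In early versus lateCD23lo, 4 genes lay wholly below (3.37% of all genes), Mrpl1, Mrpl28, Mrpl40 and Mrps18c, and 2 wholly above (2.86%), Mrps26 and Mrps30.

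**Figure D4:**
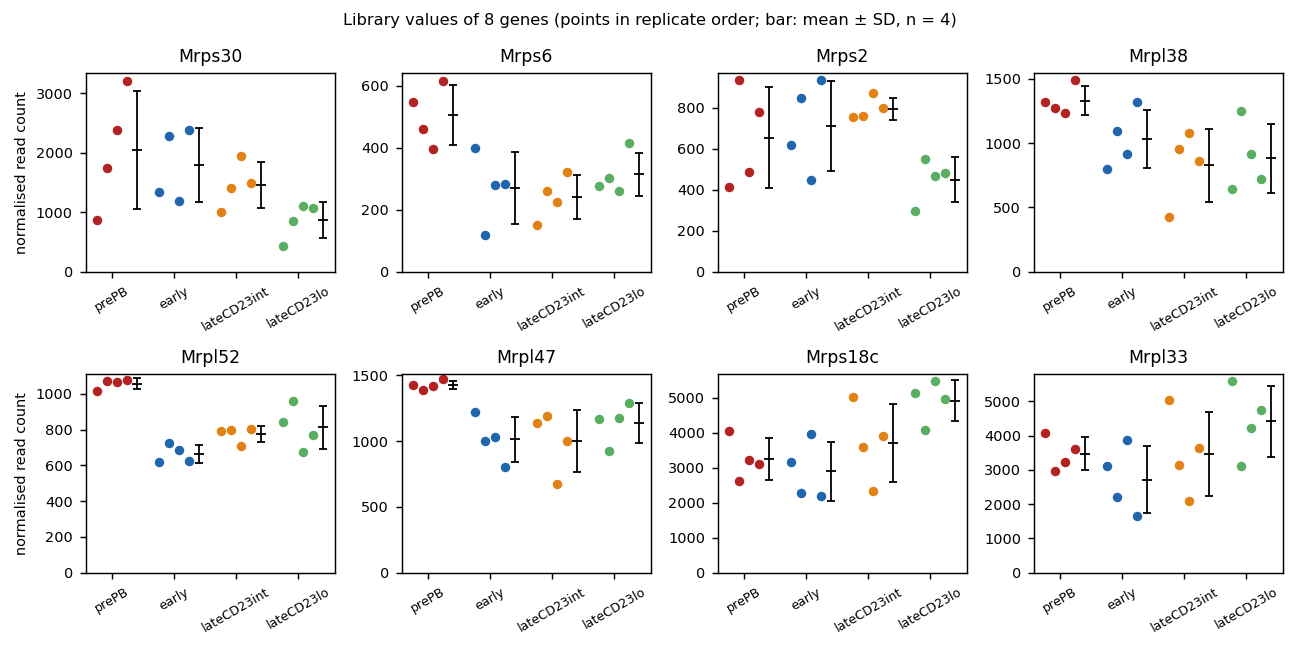
Normalised read counts of 8 genes in each library (points, in replicate order within a subpopulation) with mean ± SD (n = 4). Mrpl52 and Mrpl47 lie above all other libraries in prePB, Mrps30 and Mrps2 lie low in lateCD23lo, and Mrps18c and Mrpl33 reach their highest values in lateCD23lo and lateCD23int.

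The remaining genes at the ends of the comparisons are given as log2 fold changes, none with an adjusted p under 0.05. For prePB versus early, Mrps5 stood at 0.51 and, at the other end, Mrps35 at -0.20, Mrps18a at -0.16 and Mrps2 at -0.14. For early versus lateCD23int the ends were Mrpl38 at 0.37, Mrps27 at 0.31 and Mrps35 at 0.28, against Mrpl33 at -0.36, Mrpl32 at -0.35 and Mrps18c at -0.35. Mrps27, an RNA-binding protein of the small subunit, was the 1 gene of the 78 whose early libraries all exceeded those of lateCD23int (1.11% of all genes), and none lay wholly below (1.37%). For lateCD23int versus lateCD23lo, Mrpl9 stood at 0.29, Mrpl44, which resembles an RNase III, at -0.43 and Mrps6 at -0.41. For early versus lateCD23lo, Mrps26 stood at 0.42. For prePB versus lateCD23int, Mrps2 stood at -0.36, Mrps25 at -0.20 and Mrpl27 at -0.16. For prePB versus lateCD23lo, Mrpl27 stood at -0.39 and Mrps21 at -0.38, and 3 genes lay wholly above (3.01% of all genes) and 2 wholly below (3.55%).

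The genes of both subunits are given side by side. For prePB versus early, 44 of the 51 large subunit genes and 21 of the 26 small subunit genes were higher in prePB, with medians of 0.14 and 0.12. For early versus lateCD23lo, 12 of 51 and 7 of 26 were higher in early, with medians of -0.16 and -0.13. Genes with a bacterial homolog and genes specific to mitochondria had medians of 0.18 and 0.10 for prePB versus early and of -0.16 and -0.15 for early versus lateCD23lo. By transcript length, the 53 short genes had a median of 0.17 for prePB versus early and the 11 long genes 0.08, and for early versus lateCD23lo the medians were -0.16 and 0.001.

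The 78 genes varied little from library to library. Their residual SD within subpopulations had a median of 0.25 on the log2 scale, against 0.40 for the 6465 tested genes in the same range of mean levels and 0.24 for 98 genes with cytosolic ribosomal protein symbols. Over all 16 libraries the coefficient of variation had a median of 17.8%, from 9.99% to 47.1%. Mrpl52, Mrpl28 and Mrpl2 varied least, each with a residual SD of 0.13, and Mrps30 (0.60), Mrps5 (0.53) and Mrps6 (0.48) most. Mrps5, a small subunit protein with a bacterial homolog, had 523, 1078, 1176 and 1332 normalised read counts in prePB libraries 1 to 4 and 518, 649, 587 and 1078 in those of early. Library 1 was the lowest in both subpopulations, and the groups overlapped.

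**Figure D5:**
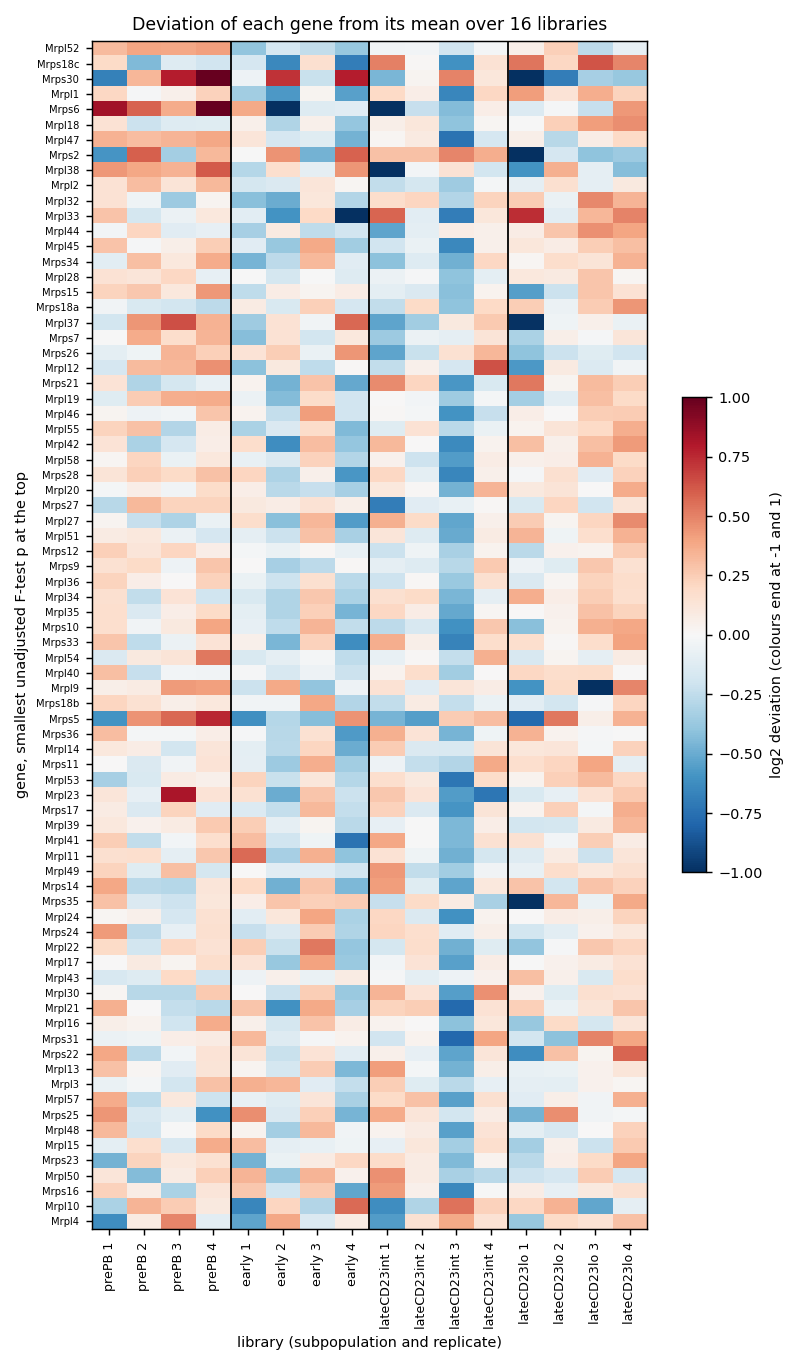
log2 deviation of each of the 78 genes (rows, smallest unadjusted F test p at the top) from its mean over 16 libraries (columns, by subpopulation and replicate), with colours ending at -1 and 1. The column of lateCD23int 3 is blue for most genes, and the top rows, such as Mrpl52 with prePB in red, differ between subpopulations.

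Some levels are uncertain because reads can be shared. Exons of 33 of the 78 genes overlap exons of another gene, with that gene at a mean of at least 10 normalised read counts for 23 of them. Mrps11 and Mrpl46 overlap each other on opposite strands. Mrpl23 (mean 254) has a pseudogene row, Mrpl23-ps1, that was listed at 2286 to 4187, so that the level of Mrpl23 is uncertain. The other excluded rows, Mrps36-ps1, Mrps36-ps2, Mrps36-ps3 and Mrpl48-ps, did not exceed 12.2 in any library.

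Other genes of mitochondrial translation were taken from lists. Of 5 mitochondrial ribosomal proteins with other symbols, 25 assembly factors, 15 translation factors, 20 tRNA synthetases and 8 genes for transcription or replication of mitochondrial DNA, all were tested and 0 were called by limma or edgeR in any pair. At an unadjusted limma p under 0.05 each list gave at most 3 genes in a comparison, beside 3.71% to 12.7% of all genes. For prePB versus early the median log2 fold change was 0.10 for the ribosomal proteins with other symbols, with Chchd1 at 0.35 and Aurkaip1 at 0.16, -0.03 for assembly factors, with Ybey at -0.86 and Mettl15 at -0.57, 0.07 for translation factors, with Taco1 at 0.92 and Gfm2 at -0.44, and 0.03 for tRNA synthetases, with Ears2 at -1.29 and Pars2 at -1.18. It was 0.004 for transcription and replication genes, with Polrmt at -1.26 and Twnk at -0.16. None of these 10 passed the test. Of the 98 tested genes with cytosolic ribosomal protein symbols, 0 were called by limma or edgeR. For prePB versus early they had a median of 0.28, with 90 higher in prePB (51.2% of all genes). At an unadjusted limma p under 0.05 this comparison gave 16 of the 98, the most of any pair, against 8.58% of all genes. The name pattern of this list also matches Rps6k kinase genes and Rps19bp1, which are not ribosomal proteins.

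The products of the mitochondrial genome, which the ribosome translates or is built on, took 1.23% to 2.59% of normalised counts as mRNAs. None of the 13 mRNAs and 2 rRNAs was called by limma or edgeR in any pair. For prePB versus early, mt-Nd4l stood at 0.54 and mt-Nd5 at -0.23, with a median of 0.01 over the 13. For early versus lateCD23lo all 13 were lower in early (median -0.21), and for prePB versus lateCD23lo 12 of 13 were lower in prePB (median -0.19). For comparison, the 78 nuclear genes had medians of -0.15 and -0.01 in these comparisons with lateCD23lo. Of all genes, 49.6% were higher in early than in lateCD23lo and 49.5% higher in prePB. Against lateCD23int, 1 of the 13 mRNAs was higher in early (median -0.24) and 2 of the 13 in prePB (median -0.27). The median SE over the 13 was 0.25, and their sums overlapped between all subpopulations.

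Of 8 genes for regulators of mitochondrial biogenesis, 0 were called by limma or edgeR. For prePB versus early, Pprc1, a PGC-1 related coactivator, stood at 1.09 and Ppargc1b at -0.85. Myc had 2299.96, 4165, 4411 and 4417 normalised read counts in prePB, 1183, 3503, 1760.3 and 3563 in early, 857, 1801, 3817 and 1839 in lateCD23int, and 1528, 1698, 1282 and 1198 in lateCD23lo. prePB and lateCD23lo did not overlap, while early and lateCD23int spread over both. The log2 fold change was 1.39 ± 0.39 (SE, limma adjusted p = 0.151) for prePB versus lateCD23lo and, blocked on replicate number, the limma adjusted p was 0.0392. In the same comparison the 78 genes had a median log2 fold change of -0.01, with 38 higher in prePB. Mean Myc was 3823 in prePB, 2503 in early and 2079 in lateCD23int. For prePB versus early 66 of the 78 genes were higher in prePB (median 0.13), and for prePB versus lateCD23int 63 (median 0.13). A link between Myc and the 78 genes was not tested.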

How the data were processed

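Bulk RNAseq of 4 sorted subpopulations, 4 libraries each, was analysed. Per the submitters' processing notes, reads were handled with Trimmomatic 0.36, STAR 2.5.2a, RSEM 1.2.31 and DESeq2 1.20.0 (R 3.5.1) on GRCm38. The deposited values, a signal per gene, are gene counts that the authors divided by a size factor for each library. Whole reads were recovered from the steps between low values (100% of values whole, tolerance 0.001), and these gave the depths. The library kit does not mark strand. Values were taken as log2(normalised count + 1), genes with a mean of at least 10 were kept, and limma 3.58.1 with a trended prior was fitted to all 16 libraries in R 4.3.3, giving 6 pairwise contrasts and an F test with Benjamini-Hochberg adjustment over all tested genes at 0.05. Fold changes on this scale understate those of low genes. edgeR 4.0.16 (quasi-likelihood, TMM) on the recovered reads, other pseudocounts, filters and scalings, a replicate block, and leaving out each library were alternatives. The scripts were tested on simulated data.

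Levels per kb used the principal transcript of the GRCm38 annotation, and promoters came from RefSeq. Figures were drawn with matplotlib 3.10.9. Members were named where they had an adjusted p under 0.05, the 3 highest or 3 lowest fold changes of a comparison, the 5 highest or 5 lowest levels per kb, the 8 smallest F test p-values, a known role apart from the symbol, or a library that stood apart. From other lists, the 2 genes with the largest fold changes between prePB and early were named. The genes and lists were chosen with earlier results of these data known.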

Additional observations from a re-analysis of the deposited data

Results flagged for a closer look

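A single library stood apart from the other 3 of its subpopulation, by Dixon's test at the 95% level, in 15 of 312 sets of 4 libraries (78 genes in 4 subpopulations). Chance alone gives about 5% of such sets. Mrpl14 had 1139 normalised read counts in prePB 3, below the 1360.4 to 1400.4 of the other libraries of that subpopulation. In early 1, Mrpl15 stood at 4274, above a range of 3243 to 3345. Mrpl19 reached 2785 in lateCD23int 3, below 3495 to 3583 in the others. Mrpl21 had 1498 normalised read counts in lateCD23int 3, below the 2842 to 3048 of the other libraries of that subpopulation. In lateCD23int 3, Mrpl32 stood at 1860.2, below a range of 2577 to 2656. Mrpl37 reached 1259 in lateCD23lo 1, below 2391 to 2588 in the others. Mrpl40 had 3133 normalised read counts in lateCD23lo 4, below the 3525 to 3596 of the other libraries of that subpopulation. In prePB 3, Mrpl43 stood at 1388, above a range of 1060.4 to 1105. Mrpl50 reached 2645 in lateCD23lo 3, above 1920.4 to 1975 in the others. Mrpl52 had 706 normalised read counts in lateCD23int 3, below the 793 to 800.3 of the other libraries of that subpopulation. In lateCD23int 3, Mrpl53 stood at 466, below a range of 823 to 876. Mrps14 reached 6608 in lateCD23lo 2, below 8833 to 9182 in the others. Mrps15 had 1594 normalised read counts in early 1, below the 1938 to 2002 of the other libraries of that subpopulation. In early 3, Mrps17 stood at 2408, above a range of 1629 to 1754. Mrps36 reached 2828 in lateCD23lo 1, above 2199 to 2280.3 in the others. Of the 15, 5 were low values of lateCD23int 3. In none of the 4 subpopulations did a library stand apart in the summed level of the 78 genes.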

How the results depend on the processing

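The count of genes called was recomputed under each alternative setting for the 6 comparisons and the F test. This gave 195 counts that are not separate settings, and 192 of them were 0. The other 3 gave 1, in each case Mrps30 for prePB versus lateCD23lo: limma with the replicate block (1 gene), edgeR with the replicate block (1 gene), and the fit without prePB 1, leaving out each library in turn giving 0 to 1. The labels give the subpopulations the same numbers 1 to 4 but do not tie a number to a mouse or day, and the reported fit has no replicate block. Deviations of same-numbered libraries correlated above 0.1 in 5 of 24 pairs over all tested genes (-0.13 to 0.17), in 17 of 24 over genes with a mean of at least 1000 (-0.59 to 0.70) and in 15 of 24 over the 78 genes. Over the genes of at least 1000, all 6 pairs of number 1 (0.46 to 0.70) and of number 4 (0.21 to 0.53) exceeded it, but not all of numbers 2 and 3. Correlations between differently numbered libraries were not computed, so whether a number marks a shared mouse or day was not tested. With the replicate block 192 of all tested genes were called for prePB versus lateCD23lo against 33 without it, and 121 against 18 for prePB versus lateCD23int. Without a filter on low values 4 rather than 24 genes were called for prePB versus early. Of 972 fold changes of named genes, 3 changed sign, all of Mrps2 for prePB versus early (-0.14): it was 0.0065 with early 4 and lateCD23int 3 both left out, an alternative chosen after seeing the data, and from -0.35 to 0.052 when each library was left out in turn. Medians of the 78 genes moved by less than 0.16 in all alternatives run, the SD between replicates of the library medians. That limit was larger than the medians themselves, so it could not show whether a median had been lost. For prePB versus lateCD23int the median was 0.13 and fell to 0.009 without lateCD23int 3. Summed levels moved by less than their SD, a limit that leaving out 1 of 4 libraries could not reach. The sign of the medians near 0 was not fixed: early versus lateCD23int was 0.003 and prePB versus lateCD23lo 0.07 after rescaling to equal totals. The lowest value of the 78 genes was 133 reads in a library, and the effects of depth and of the number of libraries on the calls were not tested.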
